A study of Mus musculus with 4 samples.

Results

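The genes of cholesterol and fatty acid metabolism were examined in the hippocampus of mice on postnatal day 2. The set holds 33 genes, chosen by symbol: enzymes of sterol synthesis, the sterol-sensing regulators, genes of cholesterol efflux and lipoprotein lipolysis, and enzymes that make, desaturate and elongate fatty acids. Every probe set that the platform annotation assigns to 1 of these symbols alone was taken, which gave 75 of the 45037 probe sets on the array. The study compared tissue labelled as Zbtb20 knockout with tissue of littermates labelled wildtype (the controls), to look for targets of this zinc finger transcription factor in hippocampal development. Total RNA of manually dissected, snap-frozen hippocampi went onto 4 Affymetrix arrays, 2 per group, numbered replicate 1 and replicate 2 in each group. Strain, sex, allele and pooling are not in the labels, nor is it said whether the arrays within a group stand for different animals, so p-values measure only the spread between these arrays, which may be technical.

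Cholesterol cannot be taken up by the brain from the blood in useful amounts and is made in place. The pathway runs from acetyl-CoA through mevalonate and squalene to lanosterol and then to cholesterol. Its genes are switched on together when the endoplasmic reticulum is low in sterol: Scap escorts the SREBP proteins (from Srebf1 and Srebf2) to be cut and activated, and the Insig proteins hold that complex back. Radial glia, astrocytes and later the myelinating oligodendrocytes are the main sites of this synthesis.

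The arrays came on 2 scales, which went with the replicate number. The trimmed mean signal (2% removed at each end) was 498 and 497 on the arrays of replicate 1 and 158 and 156 on those of replicate 2. Values are therefore compared within pairs: pair 1 is the knockout value minus the control value of replicate 1, and pair 2 the same for replicate 2, with arrays named by their labels. A difference is on the scale log2(signal + 32.56), which understates changes of dim probe sets, and within a pair it sets 1 array against 1 array, with no test. Where signals of the replicates are set side by side they are divided by the trimmed mean of their array and called scaled signals. The targeted gene did not check the labels: of 9 Zbtb20 probe sets, 0 were lower in both pairs, and 1443471_at had a ratio of knockout to control of 0.488 in pair 1 and 2.08 in pair 2. The sources used here do not place these probe sets relative to the deleted part. Directions below are those of the array labelled knockout against the array labelled control. Hippocampal markers were present on all arrays, with Neurod6, a transcription factor of pyramidal neurons, at signals of 6997 and 7349 in replicate 1 and 1498 and 1745 in replicate 2 (control, then knockout). The arrays of replicate 1 also carried liver transcripts. The 12 liver markers measured, transthyretin apart, summed to signals of 61908 (control) and 20956 (knockout) in replicate 1 and 505 and 528 in replicate 2. In pair 1 all 12 were past 1.5-fold on the lower side (median -1.89), and in pair 2 they lay between -0.10 and 0.17. Liver makes cholesterol and fatty acids too, and the part of these transcripts in the pair 1 differences below was not tested.

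The set as a whole was expressed, and all but 1 of its genes differed little between the labelled groups. Of the 75 probe sets, 65 passed the filter on dim probe sets (a mean above the 40th percentile over the 4 arrays), and all 33 genes kept at least 1. Lpl, which encodes lipoprotein lipase, was the exception: it was on the higher side in pair 1 and on the lower side in pair 2. Taking each gene by its kept probe set of highest mean, the other 32 genes lay between -0.52 and 0.48 in pair 1 and between -0.28 and 0.50 in pair 2. The median of the 33 genes was -0.05 in pair 1 and 0.03 in pair 2, against -0.01 and -0.0006 over all 12581 genes with a kept probe set. The median size of the difference, regardless of sign, was 0.12 and 0.097 for the set and 0.21 and 0.12 over all genes. The 2 were not matched for brightness: the members' probe sets lay at the 75th percentile of mean signal or above, while all genes start from the 40th.

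In limma's test over all 4 arrays 0 of the 65 member probe sets passed an adjusted p of 0.05. The same fit called 0 of all 27022 kept probe sets (0%), and 5 of these and 0 of the members were under 0.05 before adjustment. When the replicate number, and with it the scale, entered as a block, limma also called 0 members and 0% of all kept probe sets, with 330 of all and 0 of the members at an unadjusted p under 0.05. The lowest adjusted p among members was 1 in the first fit and 0.9999 in the blocked one. In the first fit the SE of a member gene lay between 1.30 and 1.98, since both scales enter the error, and the lack of calls there says little about the changes. The blocked fit bounds the changes more closely. For the 32 genes other than Lpl the mean of both pairs lay between -0.31 (Fdps) and 0.30 (Elovl5), and the half-width of its 95% interval lay between 0.37 (Scd2) and 0.47 (Idi1). For 27 of the 33 genes, each read from its brightest probe set, the whole interval lay inside a 1.5-fold change in either direction (0.58 on the log2 scale). By that probe set, the genes whose interval went past the bound were Pmvk, Idi1, Fdps, Scd1, Elovl5 and Lpl. Several of the 27 genes had another kept probe set whose interval went past it. Examples are Lss 1420013_s_at (-0.10 to 0.93), Hmgcs1 1441536_at (-0.93 to 0.19) and Hsd17b7 1448865_at (-0.80 to 0.43). The bound therefore holds for the probe sets chosen.

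**Figure D1:**
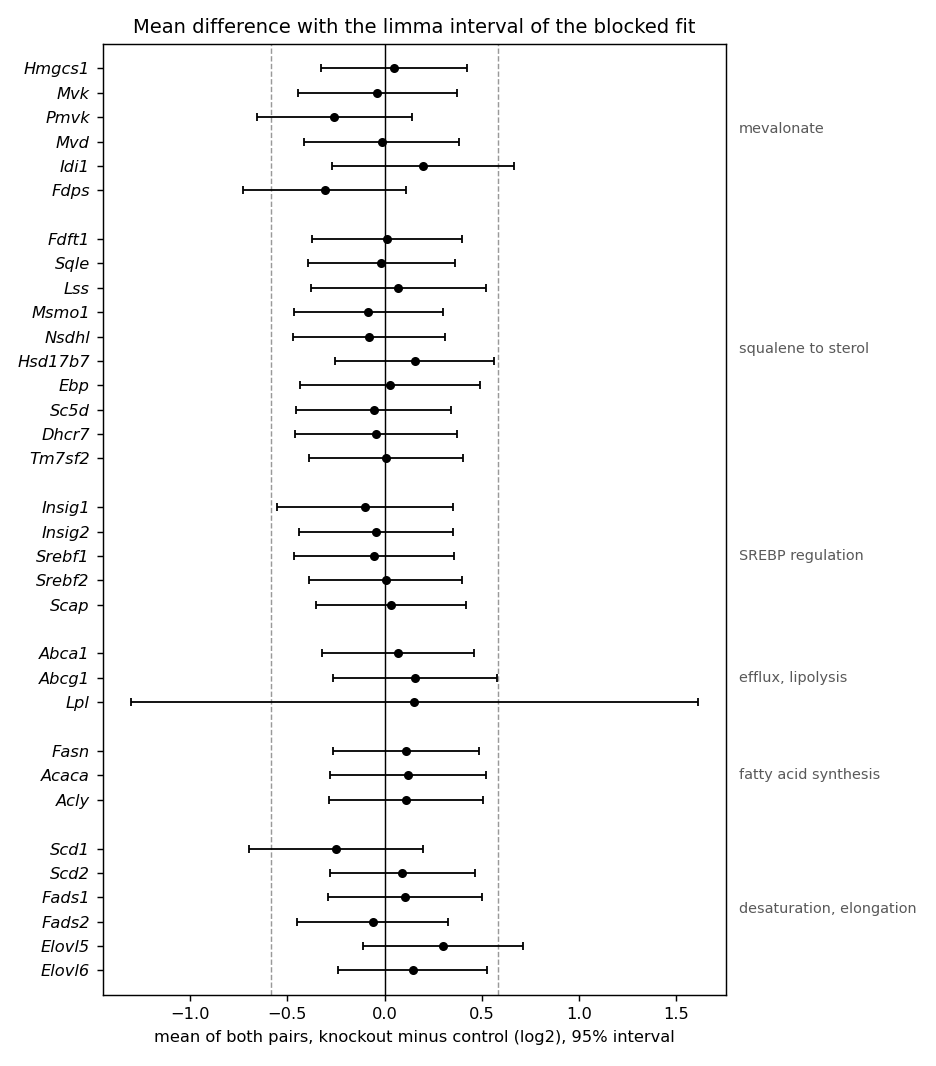
Mean of the pair 1 and pair 2 differences (knockout minus control, log2) of each of the 33 genes by role, n = 2 arrays per group, with the 95% interval of limma's fit with the replicate number as a block; dashed lines mark a 1.5-fold change. Every interval crosses 0, and that of Lpl, from -1.31 to 1.61, is the widest.

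Counted against a 1.5-fold difference within a pair, few members stood out. In pair 1, 3 of the 65 probe sets were higher and 2 lower past that size, where 6.25% and 8.99% of all kept probe sets were. In pair 2, 0 were higher and 2 lower, where 1.07% and 1.69% of all were. By gene, Lpl alone was past it, in both pairs. In pair 1 it was 1 of 33 genes higher and 0 lower, against 5.51% and 8.29% of all genes. In pair 2 it was 0 of 33 higher and 1 lower, against 1.01% and 2.17%. The signs of the pairs matched for 12 of the 33 genes (6 higher and 6 lower in both), where 46.4% of all genes had 1 sign in both pairs.

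**Figure D2:**
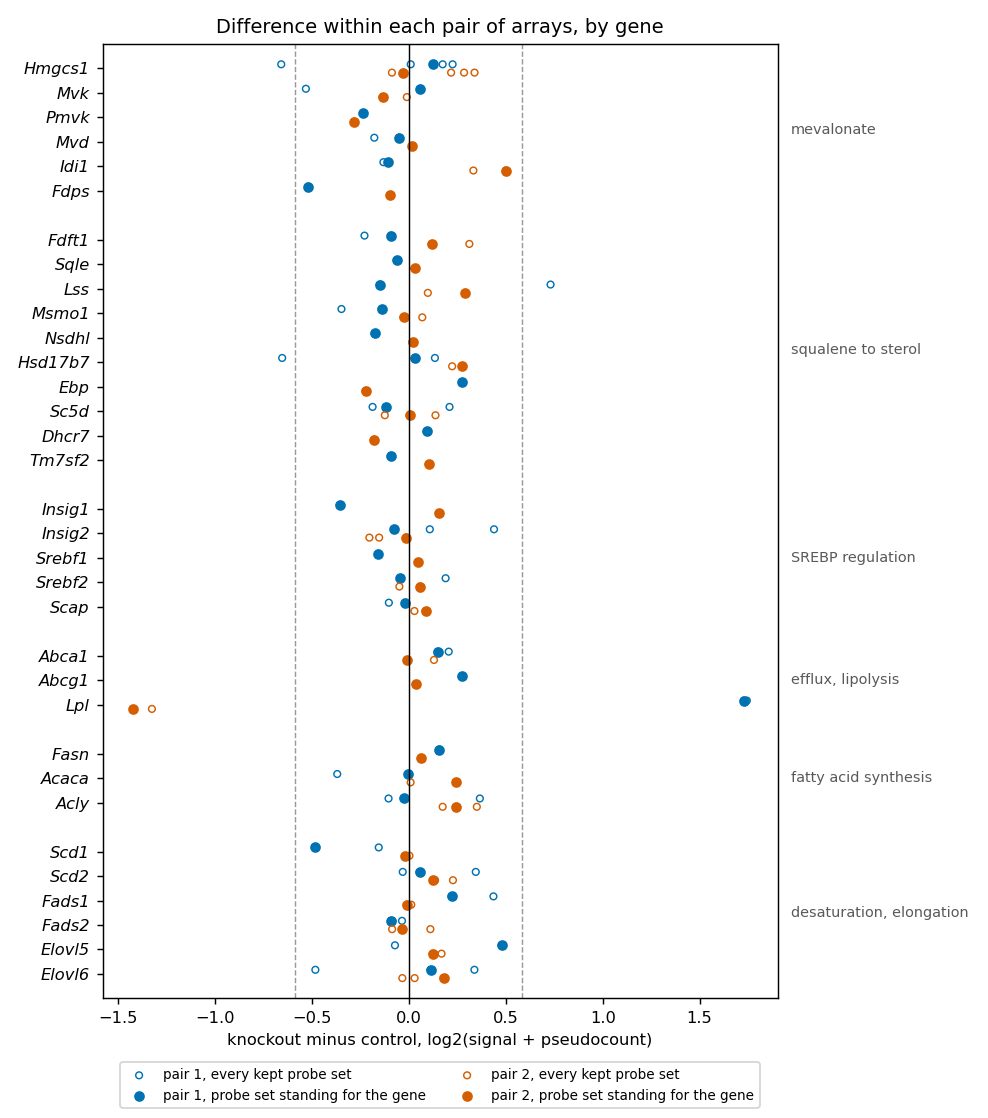
Difference between the array labelled knockout and the array labelled control (log2(signal + pseudocount), horizontal axis) for each gene, in pair 1 (blue) and pair 2 (orange); filled points are the probe set that stands for the gene, open points every kept probe set, and dashed lines a 1.5-fold change. Lpl lies at 1.73 and -1.42, while the filled points of all other genes lie inside the dashed lines.

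The 6 genes of the mevalonate steps lay between -0.52 and 0.12 in pair 1 and between -0.28 and 0.50 in pair 2. Hmgcs1, the cytosolic HMG-CoA synthase that commits acetyl units to the pathway, had signals of 17406 (control) and 18980 (knockout) in replicate 1. In replicate 2 it had 4569 and 4479. The difference was 0.12 in pair 1 and -0.03 in pair 2, the latter with its sign turned by quantile normalization. Its other bright probe sets, 1433444_at, 1433445_x_at and 1433446_at, lay at 0.17, 0.23 and 0.01 in pair 1 and 0.28, 0.22 and 0.34 in pair 2. A dimmer one, 1441536_at, lay at -0.66 and -0.09. Differences of this size therefore varied with the probe set chosen. Mevalonate kinase (Mvk) lay at 0.06 and -0.14, and its other kept probe set, 1430619_a_at, at -0.53 and -0.01. Averaging both turned the pair 1 value to -0.24. Mvd, the mevalonate diphosphate decarboxylase, lay at -0.05 and 0.02. Pmvk, the phosphomevalonate kinase between Mvk and Mvd, was lower in both pairs, with signals of 979 and 826 in replicate 1 and 278 and 223 in replicate 2 (differences -0.24 and -0.28). Its mean of -0.26 had a 95% interval of -0.66 to 0.14 in limma's blocked fit.

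Idi1, which interconverts the isoprene units IPP and DMAPP, had the highest pair 2 difference of the set. Its signals were 2197 and 2037 in replicate 1 and 565 and 812 in replicate 2, giving -0.11 and 0.50. The other Idi1 probe set, 1423804_a_at, lay at -0.13 and 0.33, so both probe sets had a negative difference in pair 1 and a positive one in pair 2. Fdps, which joins the isoprene units to farnesyl diphosphate, had the lowest pair 1 difference of the set. Its signals were 6156 and 4286 in replicate 1 and 1224 and 1142 in replicate 2 (differences -0.52 and -0.10). The blocked mean of -0.31 had a limma 95% interval of -0.73 to 0.11. Fdps was thus lower in both pairs, though quantile normalization turned its sign in pair 2. The larger difference was in the pair in which the liver markers were lower too, and the part of liver transcripts in it was not tested.

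Promoter sequence was at hand for 25 of the 33 genes, from RefSeq on build GRCm38.p6. The 250 bases before each start site were searched on both strands for the sterol regulatory element that SREBP binds, written TCACNCCAC, and for the CCAAT box, the site of NF-Y, which acts beside SREBP at many sterol genes. The motifs share no letters in the matches shown. The first was found for 1 of the 25 genes (4.0%), Hmgcs1, where 1.22% of all 27025 genes in the table hold it. The CCAAT box was found for 19 of the 25 (76.0%), where 37.5% of all genes hold it. By window, since some genes have several start sites, the shares were 60.6% of 33 and 33.8% of 32851. A match is a description of the letters, and these arrays carry no measure of binding. A site with other letters would not be found by this search. Shown are Hmgcs1 (the gene that matched the sterol element as written), Idi1 (the highest pair 2 difference) and Mvk (the most CCAAT boxes, 5). Their windows are given 5′ to 3′, with the matches of both motifs in capitals. They lie on the + strand at chr13:119690101-119690350, chr13:8885356-8885605 and chr5:114444019-114444268.
Hmgcs1: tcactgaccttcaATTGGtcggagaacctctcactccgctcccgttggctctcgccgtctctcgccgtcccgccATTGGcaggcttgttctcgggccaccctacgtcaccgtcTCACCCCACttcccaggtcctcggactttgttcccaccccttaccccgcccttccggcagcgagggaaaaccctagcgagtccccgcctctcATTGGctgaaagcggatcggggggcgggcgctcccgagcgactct
Idi1: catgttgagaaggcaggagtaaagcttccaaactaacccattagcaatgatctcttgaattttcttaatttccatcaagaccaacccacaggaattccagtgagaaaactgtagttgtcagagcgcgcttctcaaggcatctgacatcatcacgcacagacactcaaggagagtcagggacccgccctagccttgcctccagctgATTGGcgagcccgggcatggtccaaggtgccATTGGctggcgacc
Mvk: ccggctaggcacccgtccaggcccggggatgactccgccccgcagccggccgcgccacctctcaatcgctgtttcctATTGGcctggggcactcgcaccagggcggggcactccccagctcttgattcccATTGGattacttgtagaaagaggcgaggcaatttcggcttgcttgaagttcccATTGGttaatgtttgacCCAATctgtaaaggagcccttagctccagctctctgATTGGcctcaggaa
In the Hmgcs1 window the 9-base run that begins with a capital T is the sterol element, which starts 137 bases before the start site. The CCAAT boxes there start 237, 176 and 45 bases before it, those of Idi1 45 and 14. The windows of Hmgcs1, Idi1 and Mvk hold 3, 2 and 5 boxes.

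The 10 genes that lead from squalene to the sterols lay between -0.18 and 0.28 in pair 1 and between -0.22 and 0.29 in pair 2. By sign, 6 of them went from the lower side in pair 1 to the higher side in pair 2, 2 the reverse, and 1 each higher and lower in both. Fdft1, the squalene synthase, had signals of 9330 and 8746 in replicate 1 and 1335 and 1452 in replicate 2 (differences -0.09 and 0.12). Sqle, the squalene epoxidase and a rate-limiting step, had 5893 and 5644 in replicate 1 and 1474 and 1505 in replicate 2 (-0.06 and 0.03). For both genes the arrays of a pair were close. Lss, which closes the ring to lanosterol, had 915 and 821 in replicate 1 and 119 and 152 in replicate 2 (-0.15 and 0.29). Another Lss probe set, 1420013_s_at, was higher in both pairs, at 0.73 and 0.10, so the sign of Lss in pair 1 depends on the probe set.

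Of the enzymes that turn lanosterol into cholesterol, Msmo1, the C4-methyl oxidase, lay at -0.14 and -0.03 and Nsdhl, the dehydrogenase of the same demethylation, at -0.18 and 0.02. A second Msmo1 probe set, 1459627_at, lay at -0.35 and 0.07. Hsd17b7, its ketoreductase, was on the higher side in both pairs, except that the mean over its probe sets turned the sign in pair 1, with signals of 1057 and 1080 in replicate 1 and 233 and 289 in replicate 2 (0.03 and 0.28). Its other kept probe sets were also higher in pair 2, at 0.28 and 0.22, while 1448865_at was at -0.65 in pair 1. Tm7sf2, a C14 sterol reductase, lay at -0.09 and 0.10. Ebp, the sterol isomerase, lay at 0.28 and -0.22, Sc5d, the C5 desaturase, at -0.12 and 0.0045, and Dhcr7, the last reductase to cholesterol, at 0.09 and -0.18. Sc5d probe set 1451457_at had the opposite signs, at 0.21 and -0.12. None of these differences reached 1.5-fold in the probe set that stands for the gene, and the signs of the pairs were opposite for 8 of the 10 genes.

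The 5 regulators of the pathway were all on the lower side in pair 1 and, Insig2 apart, on the higher side in pair 2, by small amounts. Srebf1 had signals of 960 and 857 in replicate 1 and 146 and 152 in replicate 2 (-0.16 and 0.05). Srebf2, whose product drives the sterol genes in particular, had 1368 and 1325 in replicate 1 and 282 and 295 in replicate 2 (-0.05 and 0.06). Scap lay at -0.02 and 0.09. The signals of these genes were thus close within each pair. Insig1, itself a target of SREBP and a common readout of its activity, had 842 and 650 in replicate 1 and 612 and 687 in replicate 2 (-0.36 and 0.16). Insig2 lay at -0.08 and -0.02. Its other probe sets, 1417982_at and 1417980_a_at, lay at 0.11 and 0.44 in pair 1 and -0.20 and -0.15 in pair 2, and the second Srebf2 probe set, 1426744_at, at 0.19 and -0.05. The shared sign of the regulators therefore rests on the probe sets chosen.

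Insig1 also stood apart across the replicates. Its scaled signal was 1.69 and 1.31 in replicate 1 and 3.89 and 4.41 in replicate 2 (control, then knockout), so it was higher in replicate 2 in both groups. The reverse was seen for Fads1, at 6.71 and 7.83 in replicate 1 and 2.50 and 2.51 in replicate 2. For 25 of the 33 members the gap between replicates, on the log2 scale, was wider than that within either pair. The share over all genes was not counted, so the count is not a trait of the members. Over all probe sets, the rank correlation was 0.926 and 0.986 between the arrays of a pair. Between arrays of different replicate number it was 0.818 to 0.832. For Fdft1 the scaled signals were 18.8 and 17.6 against 8.47 and 9.32. This gap goes with the scale of the arrays and the replicate number, which cannot be told apart.

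**Figure D3:**
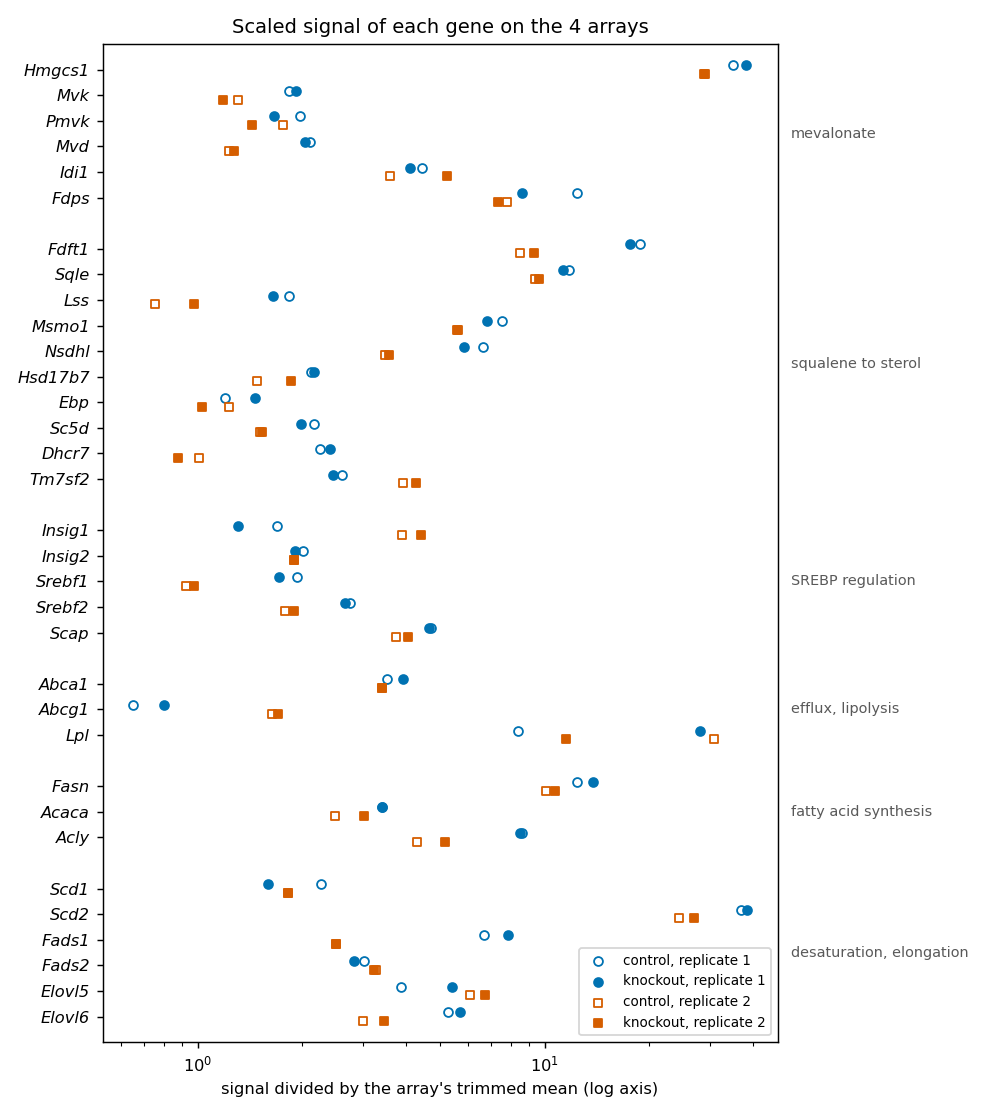
Scaled signal (signal divided by the trimmed mean of its array, log axis) of the probe set that stands for each gene, on the control (open) and knockout (filled) arrays of replicate 1 (circles) and replicate 2 (squares); values are to be compared within a row only. The points of a pair lie close together for nearly all genes, while for Lpl the control of replicate 1 (8.40) lies near the knockout of replicate 2 (11.5), and the knockout of replicate 1 (28.0) near the control of replicate 2 (30.7).

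Lpl, the lipase that releases fatty acids from circulating lipoproteins and that neurons and glia of the hippocampus make, was the member with the widest differences. Probe set 1415904_at had signals of 4180 (control) and 13922 (knockout) in replicate 1, and of 4835 and 1784 in replicate 2. The second probe set, 1431056_a_at, had 1200 and 4094 in replicate 1 and 1151 and 440 in replicate 2. The array labelled knockout was thus the higher one in replicate 1 and the lower one in replicate 2, by both probe sets. The ratio of knockout to control was 3.33 and 3.41 in pair 1 and 0.369 and 0.382 in pair 2. On the log2 scale the differences were 1.73 and 1.74 in pair 1 and -1.42 and -1.33 in pair 2. Of all 12581 genes, 94 (0.747%) were likewise over 1.5-fold higher in pair 1 and over 1.5-fold lower in pair 2. Over all arrays the mean difference of 1415904_at was 0.15 ± 1.94 (SE, n = 2 per group), with a limma adjusted p of 1. That SE is the trend value limma gives to probe sets of this brightness, not the spread of Lpl itself. The 95% interval of the blocked fit ran from -1.31 to 1.61. Without knockout replicate 1 the mean difference turned to -1.32, and without knockout replicate 2 it was 1.62. Both fits used the deposited signals, so the difference in scale between the replicates also enters these values. Within the pairs, whose arrays share a scale, Lpl had no common direction.

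Markers of astrocytes and radial glia moved in part with Lpl, as did some markers of other cells. Of 9 astrocyte and radial glia markers measured, 6 lay above 0 in pair 1 and below 0 in pair 2, and their medians were 0.05 and -0.36. The same signs were found for 26.1% of all genes. They were also found for 3 of 7 markers of excitatory neurons and 4 of 9 of microglia. For the oligodendrocyte lineage it was 2 of 9, and for endothelium and pericytes 1 of 8. Aqp4, the water channel of astrocytes, had signals of 428 and 1236 in replicate 1 and 633 and 216 in replicate 2 (1.46 and -1.42). Gja1, the connexin of astrocytic gap junctions, lay at 0.73 and -0.94, and Slc1a2, their main glutamate transporter, at 0.77 and -0.31. These markers were picked after their values were seen. Aldh1l1 lay at 0.22 and -0.24, Slc1a3 at 0.05 and -0.36, and Fabp7, the lipid-binding protein of radial glia, at 0.03 and -0.02. The remaining markers did not go with Lpl. Sox9 had the reverse signs, at -0.59 and 0.10, while Hes5 (-0.27 and -0.46) and Gfap (-0.10 and -0.41) lay below 0 in both pairs. Summed over the 9 markers, the scaled signal was 82.45 (control) and 90.815 (knockout) in replicate 1 and 83.75 and 72.68 in replicate 2, and none was at 0. Most of each sum was Fabp7, with 62.9 and 64 in replicate 1 and 50.2 and 50.1 in replicate 2. The sums therefore say little about the other markers. Fat cells, which are rich in Lpl, left little signal. All 7 probe sets of Adipoq, Lep, Cidec and Fabp4 failed the filter, and their highest signal was 73.4 on any array. In whole tissue fewer cells of a type and less RNA per cell cannot be told apart, and the part of the astrocytes in the Lpl values was not tested. Markers of tissue beside the hippocampus differed too. The 6 meningeal markers had medians of -0.82 and -0.05. In pair 1, 5 of them were lower and 3 were past 1.5-fold on that side, against 8.29% of all genes. In pair 2, 3 were higher and 3 lower. Dcn, a matrix proteoglycan of the meninges, is named for the widest differences of the 6, at -1.74 and 1.36. Signs opposite to those of Lpl were found for 3 of the 6, Dcn among them. Col1a2 had the signs of Lpl, at 0.26 and -0.37. Lum (-0.24 and -0.33) and Slc6a13 (-1.47 and -0.20) lay below 0 in both pairs. The 6 choroid plexus markers had medians of 0.65 and 0.41, and 4 of them were higher in both pairs. The others were Otx2 (-0.06 and -0.62) and Clic6 (-0.21 and 0.07). The part of meningeal and choroid plexus transcripts in the members' values was not tested either.

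**Figure D4:**
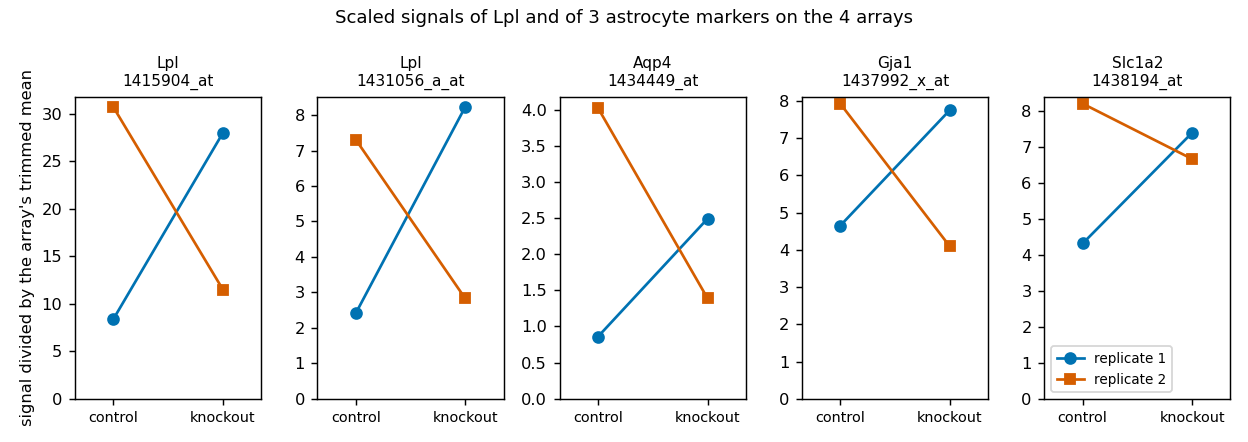
Scaled signal (signal divided by the trimmed mean of its array, axes from 0) of both Lpl probe sets and of Aqp4, Gja1 and Slc1a2 on the control and knockout arrays of replicate 1 (blue circles) and replicate 2 (orange squares), 1 array per point. In all 5 panels the knockout point lies above the control point in replicate 1 and below it in replicate 2.

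The efflux genes did not share the wide differences of Lpl, though the brightest Abca1 probe set had its signs. Abca1, the transporter that loads cholesterol onto lipoproteins and a target of the liver X receptors, had signals of 1752 and 1946 in replicate 1 and 535 and 531 in replicate 2 (0.15 and -0.01), and its probe set 1421839_at lay at 0.21 and 0.13. Abcg1, its partner in efflux, had 324 and 399 in replicate 1 and 258 and 265 in replicate 2 (0.27 and 0.04). Neither transporter was apart by 1.5-fold in either pair.

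**Figure D5:**
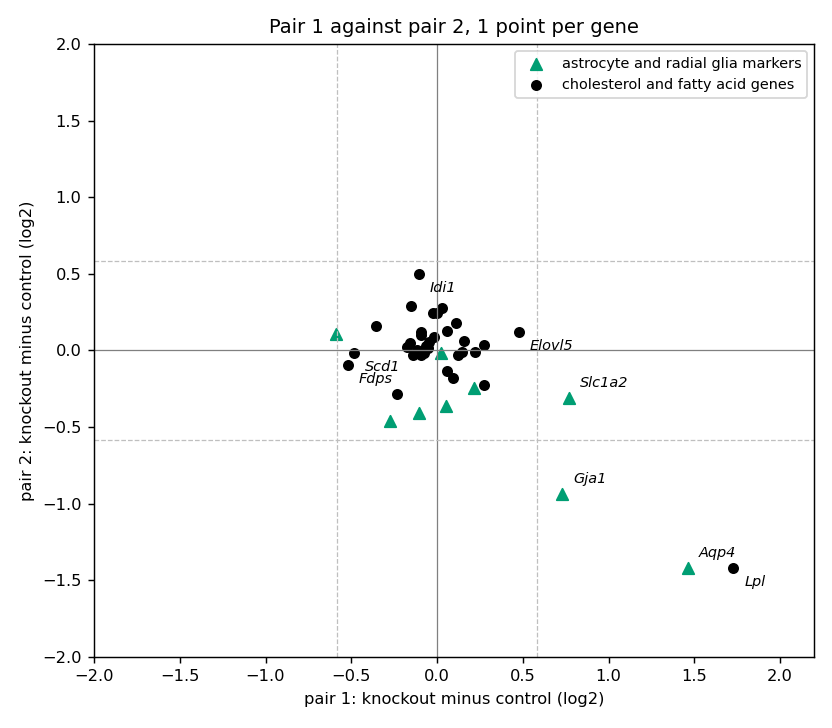
Pair 1 difference (horizontal) against pair 2 difference (vertical), both knockout minus control on the log2 scale, for the 33 genes of the set (black points) and the 9 markers of astrocytes and radial glia (green triangles); dashed lines mark a 1.5-fold change. All genes of the set but Lpl lie inside the central square, and Lpl lies beside Aqp4 at the lower right.

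The 3 genes of fatty acid synthesis lay between -0.03 and 0.16 in pair 1 and between 0.06 and 0.25 in pair 2. Fasn, the fatty acid synthase, had signals of 6155 and 6868 in replicate 1 and 1584 and 1658 in replicate 2 (0.16 and 0.06). Acaca, the acetyl-CoA carboxylase that makes malonyl-CoA, had 1688 and 1685 in replicate 1 and 392 and 470 in replicate 2 (-0.0025 and 0.24). Its other kept probe set, 1427595_at, lay at -0.37 and 0.0092. Acly, which makes cytosolic acetyl-CoA from citrate, had 4290 and 4214 in replicate 1 and 674 and 804 in replicate 2 (-0.03 and 0.25). The other kept Acly probe sets were also higher in pair 2, at 0.17 and 0.35, and lay at 0.37 and -0.10 in pair 1. For the brightest probe sets the limma 95% intervals of the blocked means ran from -0.29 to 0.52 at the widest ends. Those of Acly 1439459_x_at (-0.12 to 0.66) and Acaca 1427595_at (-0.82 to 0.46) went past 1.5-fold.

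Of the 6 desaturases and elongases, 5 had 1 sign in both pairs, 3 higher and 2 lower. Among them, Elovl6 had its pair 1 sign turned by the mean over probe sets, and Fads1, the exception, its pair 2 sign by scaling to 1 trimmed mean. Elovl5, which elongates polyunsaturated fatty acids, was higher in both. It had signals of 1918 and 2684 in replicate 1 and 958 and 1046 in replicate 2 (0.48 and 0.12). Its mean of 0.30 was the highest of the set, with a limma 95% interval of -0.11 to 0.71 in the blocked fit and an adjusted p of 0.9999. The other Elovl5 probe set, 1415840_at, lay at -0.07 and 0.17. Elovl6, which elongates saturated chains, lay at 0.11 and 0.18, with 1417403_at at 0.34 and 0.03 and the dimmer 1442656_at at -0.48 and -0.03.

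Scd2, the stearoyl-CoA desaturase that prevails in brain, had signals of 18315 and 19033 in replicate 1 and 3839 and 4188 in replicate 2 (0.06 and 0.12), and its probe set 1415824_at lay at -0.03 and 0.14. Scd1, the form that prevails in liver and fat, had 1128 and 797 in replicate 1 and 287 and 283 in replicate 2 (-0.48 and -0.02), with -0.16 and 0.0033 for 1415965_at. The lower Scd1 signal was found in pair 1, in which the liver markers were lower in the array labelled knockout. Of all 33 genes, 20 were lower and 13 higher in that pair, where 6463 of all 12581 genes were lower and 6113 higher. The part of liver transcripts in the Scd1 values was not tested. Of the front-end desaturases, Fads1 had 3338 and 3894 in replicate 1 and 394 and 390 in replicate 2 (0.22 and -0.01), and Fads2 had 1500 and 1405 in replicate 1 and 516 and 503 in replicate 2 (-0.09 and -0.03). In pair 2 their dimmer probe sets had the other sign, at 0.01 for Fads1 1440444_at and 0.11 for Fads2 1443838_x_at.

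Probe sets of 1 gene gave a measure of how far such small differences can be read. For the 22 members with more than 1 kept probe set, all probe sets had 1 sign for 11 genes in pair 1 and for 13 in pair 2. The median range between the probe sets of a gene was 0.35 in pair 1 and 0.13 in pair 2, wider than the median size of the members' differences (0.12 and 0.097). The widest range was that of Hmgcs1, at 0.88 in pair 1 and 0.43 in pair 2. The probe sets of Lpl, and those of Scap, lay within 0.10 of each other in both pairs.

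Other genes of the same pathways were also read from lists. Of 13 further genes of sterol synthesis and handling, limma called 0, with medians of 0.01 and 0.12. Npc1, which carries cholesterol out of the lysosome, was past 1.5-fold in pair 1, at 0.92, with 0.16 in pair 2. Cyp51, the lanosterol demethylase, lay at 0.02 and 0.24, and Stard4, a sterol carrier, at -0.32 and 0.32. Of 17 genes of fatty acid activation, elongation, binding and lipogenic supply limma called 0, with medians of 0.04 and -0.02. In pair 1, 2 of these were past 1.5-fold higher and 2 lower, among them Me1, the malic enzyme that supplies NADPH, at 1.07 with -0.04 in pair 2. In pair 2, 1 was past it, Tecr, the last enzyme of the elongation cycle, at -0.59 with 0.002 in pair 1. The 8 genes of fatty acid oxidation had medians of -0.13 and -0.01, and 1, Acadvl, was past 1.5-fold in pair 1, at -0.65, with 0.095 in pair 2. None of these 38 genes was past 1.5-fold in both pairs.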

How the data were processed

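RNA of 4 hippocampal samples was measured on 4 Affymetrix arrays, and 1 table of signals was used. Its values are signal intensity on a linear scale, made by the authors with MAS5 per the submitters' processing notes. The version, scaling target and background setting are not given in the sources used here, and no genome build is named for the arrays. Probe sets were named from the platform annotation: 34945 had 1 gene symbol, 932 several and 9160 none, and only the first were named. The members and gene lists were chosen with earlier results of these data known.

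Signals were transformed as log2(signal + 32.56), the 20th percentile of all values. The filter left 27022 probe sets, those whose mean exceeded the 40th percentile, and each gene was read from the brightest of its own. All kept probe sets were fitted with limma 3.58.1 in R 4.3.3 (lmFit, eBayes with a mean-variance trend), knockout minus control, with Benjamini-Hochberg adjustment over all of them at 0.05. The prior degrees of freedom were infinite without and 5.98 with the block, so the SE without the block is the trend's value. The number of arrays limits the precision: an exact permutation test of 2 against 2 cannot give a two-sided p under 0.333. Members were all named, with further probe sets where their sign differed. Other pathway genes were to be named when past 1.5-fold in both pairs, which none was. Npc1, Cyp51, Stard4, Me1, Tecr and Acadvl were chosen after their values were seen. Alternatives were other scalings, pseudocounts, filters, gene summaries and models, and leaving out each array.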

Additional observations from a re-analysis of the deposited data

How the results depend on the processing

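Lpl kept its direction and stayed past 1.5-fold in both pairs under each of the 8 alternatives that give within-pair values, with pair 1 between 1.60 and 1.74 and pair 2 between -1.50 and -1.37, and no other gene of the set passed that size under them. Over all arrays its mean difference ranged from -1.32 to 1.62 when 1 array was left out, and the scale of the arrays also enters these values. The number of probe sets called by limma was 0 under every setting run, for all probe sets and for members. The replicate number was shared between groups but the labels do not say what it marks. Arrays with 1 number deviated together from their group means (correlation 0.837 across kept probe sets), and with the replicate block 0 probe sets were called, with 330 at an unadjusted p under 0.05 against 5 without it. With control or knockout replicate 2 left out, that number was 172 and 165, and with replicate 1 left out 2 and 3. The member medians lay between -0.06 and -0.04 in pair 1 and between 0.01 and 0.06 in pair 2. Small differences changed sign: quantile normalization turned the pair 2 sign of 6 genes (Hmgcs1, Mvd, Fdps, Msmo1, Sc5d and Abca1), centring on the 75th percentile that of Sc5d, scaling to 1 trimmed mean those of Abca1 and Fads1, and the mean over a gene's probe sets 8 in pair 1 and 4 in pair 2. The count of genes with 1 sign in both pairs lay between 12 and 14.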

Other observations

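The 10 member probe sets that failed the filter, from 7 genes, were uneven in pair 1 and even in pair 2. In pair 1, 5 were past 1.5-fold on the lower side and 1 on the higher side, while 0 passed that size in pair 2. Of all 18015 probe sets that failed the filter, 24.8% were past it on the lower and 16.7% on the higher side in pair 1, and 0.15% and 0.0444% in pair 2. Examples are Acly 1446315_at, with signals of 107 (control) and 22.4 (knockout) in replicate 1 and 43.9 and 54.6 in replicate 2, and Lss 1420014_at, with 54.1 and 4.90 in replicate 1 and 50.2 and 50.5 in replicate 2. The kept probe sets of Acly lay between -0.10 and 0.37 in pair 1, and those of Lss at -0.15 and 0.73. All these signals lay below the median of their arrays (142 and 130 in replicate 1).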
